A study of Mus musculus with 4 samples.

Results

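Nuclear-encoded genes of the mitochondrial respiratory chain were examined for NR2F1 signal at their promoters in hindbrain cells of E10.5 mouse embryos. The genes were taken by symbol: those starting with Ndufa, Ndufb, Ndufc, Ndufs, Ndufv, Uqcr, Cox4 to Cox8 or Atp5, without the Ndufaf assembly factors, plus Sdha, Sdhb, Sdhc, Sdhd and Cyc1, 86 genes in all. A promoter region was a stretch of merged called peaks that came within 1000 bp of the annotated start (TSS) of any protein-coding transcript. By this rule, 97 of 263639 merged regions belonged to 83 of the genes, and 79 of the 97, one for each of 79 genes, had a peak in every library and were tested, among 35770 tested regions of which 12647 were coding promoter regions. Apart from the called peaks, no measured value entered the rule.

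The study asked how a noncoding variant changes NR2F1 binding in motor neurons of rhombomere 4, the hindbrain segment in which facial branchiomotor and inner ear efferent neurons arise. Fam5snv/snv embryos were homozygous for a single-nucleotide variant placed in cRE2, a conserved element 3′ of Gata2, and their controls were wild-type (WT) embryos of the same stage. All embryos carried Isl1MN-GFP, a transgene that marks motor neurons, and single-cell CUT&Tag with an antibody to NR2F1 (COUP-TFI), a nuclear receptor, was run on cells sorted for GFP. Cells from 8 and 16 pooled embryos gave Fam5snv/snv replicates 1 and 2, and cells from 26 and 26 pooled embryos gave WT replicates 1 and 2. The paper's general sorting method lets GFP-negative cells through at the end of a sort, while its account of this CUT&Tag describes GFP-positive cells. The barcodes may thus include cells that are not motor neurons. In CUT&Tag the transposase Tn5 is brought to the antibody and tags DNA nearby. A count here is thus a cut site and is called NR2F1 signal, which is not gene expression. No control antibody library was analysed here, so cuts independent of NR2F1 were not told apart from it.

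The respiratory chain passes electrons from NADH and succinate to oxygen through complexes I to IV and uses the proton gradient it builds to make ATP at complex V, the ATP synthase. Most subunits are encoded in the nucleus and made in the cytosol, and a few come from mitochondrial DNA, so both genomes must supply each complex except complex II. Promoters of the nuclear genes are known for sites of the factors NRF1, GABP and YY1. Several nuclear receptors, COUP-TF among them, bind the half-site AGGTCA.

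Promoter sequences of 8 genes are printed to show which of these letters lie near the starts that carried signal. Sdhb and Atp5f1 had the highest WT signal in complexes II and V, and Ndufb4, Atp5e and Atp5g3 were the 3 genes of highest WT signal with the extended half-site AAGGTCA. Ndufs8, Uqcrh and Cox8a were added after their values were seen, as the next genes of complexes I, III and IV with a sequence in the table used. Each sequence runs 5′ to 3′ in the direction of the gene, from 250 bases before the RefSeq start to 50 after it (GRCm38.p6). The windows are chr4:140961021-140961320 on the plus strand for Sdhb and, on the minus strand, chr3:105959214-105959513 for Atp5f1, chr16:37654319-37654618 for Ndufb4, chr2:174464052-174464351 for Atp5e, chr2:73911277-73911576 for Atp5g3, chr19:3912725-3913024 for Ndufs8, chr4:116075021-116075320 for Uqcrh and chr19:7217567-7217866 for Cox8a. Capitals mark AGGTCA with or without a further A, the GABP site CCGGAAG and the NRF1 core GCGCATGC, each on either strand.
Sdhb: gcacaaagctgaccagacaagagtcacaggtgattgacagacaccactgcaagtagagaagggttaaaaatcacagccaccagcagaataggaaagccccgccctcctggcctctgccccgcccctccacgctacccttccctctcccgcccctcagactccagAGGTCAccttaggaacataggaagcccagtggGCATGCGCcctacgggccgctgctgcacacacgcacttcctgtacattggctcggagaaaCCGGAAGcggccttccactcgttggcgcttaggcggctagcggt
Atp5f1: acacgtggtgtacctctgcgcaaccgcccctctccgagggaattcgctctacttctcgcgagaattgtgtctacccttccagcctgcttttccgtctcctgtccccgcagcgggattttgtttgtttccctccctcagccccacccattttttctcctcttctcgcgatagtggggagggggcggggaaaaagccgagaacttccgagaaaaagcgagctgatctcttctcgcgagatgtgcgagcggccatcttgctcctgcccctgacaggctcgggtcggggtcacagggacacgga
Ndufb4: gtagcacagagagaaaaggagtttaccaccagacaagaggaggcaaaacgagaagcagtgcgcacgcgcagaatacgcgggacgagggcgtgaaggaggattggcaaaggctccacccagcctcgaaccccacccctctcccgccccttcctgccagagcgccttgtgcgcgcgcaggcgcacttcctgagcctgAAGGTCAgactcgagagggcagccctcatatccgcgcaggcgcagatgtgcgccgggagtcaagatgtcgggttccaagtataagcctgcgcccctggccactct
Atp5e: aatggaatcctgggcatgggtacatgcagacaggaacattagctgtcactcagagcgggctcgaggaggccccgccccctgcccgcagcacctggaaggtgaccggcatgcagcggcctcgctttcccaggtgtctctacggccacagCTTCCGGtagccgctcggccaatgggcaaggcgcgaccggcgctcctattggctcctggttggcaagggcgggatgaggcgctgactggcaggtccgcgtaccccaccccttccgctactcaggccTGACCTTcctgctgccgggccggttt
Atp5g3: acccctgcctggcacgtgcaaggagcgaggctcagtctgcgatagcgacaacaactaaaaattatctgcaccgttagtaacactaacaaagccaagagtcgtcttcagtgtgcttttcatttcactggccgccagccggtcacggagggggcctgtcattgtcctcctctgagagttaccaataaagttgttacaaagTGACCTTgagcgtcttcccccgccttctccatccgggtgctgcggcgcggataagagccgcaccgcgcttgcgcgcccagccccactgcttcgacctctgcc
Ndufs8: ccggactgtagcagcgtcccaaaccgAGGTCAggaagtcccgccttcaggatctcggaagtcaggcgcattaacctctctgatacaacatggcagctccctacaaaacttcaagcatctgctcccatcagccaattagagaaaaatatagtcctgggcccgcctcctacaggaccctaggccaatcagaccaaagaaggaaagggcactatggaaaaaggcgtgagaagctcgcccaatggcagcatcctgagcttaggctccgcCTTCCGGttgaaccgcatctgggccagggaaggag
Uqcrh: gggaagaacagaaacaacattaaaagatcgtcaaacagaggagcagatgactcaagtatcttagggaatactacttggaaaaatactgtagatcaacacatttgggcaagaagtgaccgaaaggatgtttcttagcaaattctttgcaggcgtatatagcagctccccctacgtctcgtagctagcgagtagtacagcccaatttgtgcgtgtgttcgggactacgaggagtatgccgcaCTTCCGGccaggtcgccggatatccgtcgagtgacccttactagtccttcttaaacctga
Cox8a: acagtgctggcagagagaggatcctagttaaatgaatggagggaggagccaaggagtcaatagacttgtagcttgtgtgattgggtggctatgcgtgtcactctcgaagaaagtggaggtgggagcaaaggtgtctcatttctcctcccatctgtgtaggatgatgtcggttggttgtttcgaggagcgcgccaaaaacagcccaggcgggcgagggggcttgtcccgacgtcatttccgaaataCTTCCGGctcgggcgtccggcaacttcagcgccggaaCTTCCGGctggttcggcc

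In the Sdhb promoter the half-site began 86 bases before the start, the NRF1 core 54 bases before it and the GABP site 6 bases after it. The extended half-site began 52 bases before the start in Atp5g3 and 55 bases before it in Ndufb4, and in Atp5e it lay 24 bases after the start. Ndufs8 had a half-site 224 bases before the start. Uqcrh and Cox8a held GABP sites and no half-site, and Atp5f1 held none of the marked motifs, although its region was the highest of complex V in WT.

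The search was extended to the 69 genes with a promoter in the table, against 17492 coding genes, both strands counted and any listed promoter of a gene counted. AGGTCA was found in 16 of 69 respiratory chain genes (23.2%), against 16.7% of coding genes. The longer AAGGTCA, which contains AGGTCA and so is counted in both, was found in 8 of them (11.6%), against 4.73% of coding genes. These 8 were Atp5e, Atp5g3, Atp5k, Atp5l, Ndufb2, Ndufb4, Ndufs5 and Sdhd.

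Among the other motifs, the NRF1 core GCGCATGC was found in 10 of 69 genes (14.5%, against 3.94%), the GABP site CCGGAAG in 16 (23.2%, against 12.9%) and the YY1 core ATGGCG in 19 (27.5%, against 12.4%). The CREB site TGACGTCA was found in 4 genes (5.80%, against 2.54%). The NF-Y box CCAAT had about the same share in both (43.5%, against 42.3%), and the SP1 box GGGCGG had a smaller one (42.0%, against 49.2%). A match is a run of letters and was not tested as a site.

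**Figure D1:**
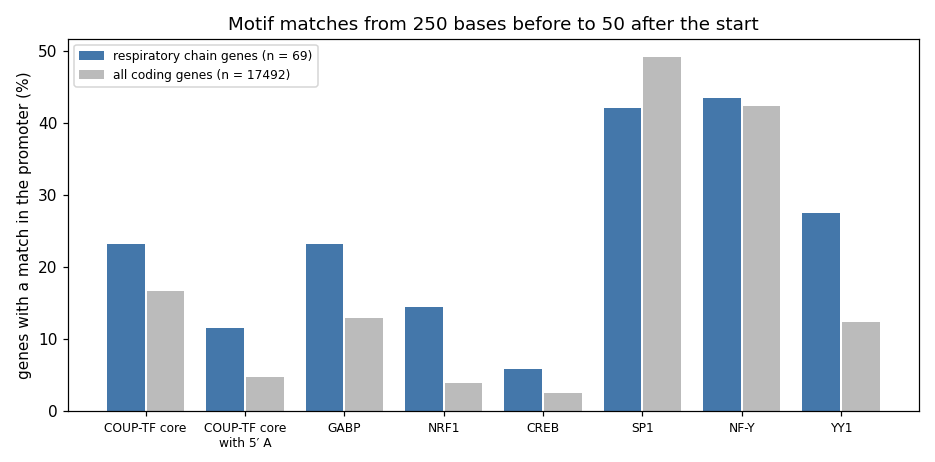
Share of genes (%, vertical axis) whose promoter, from 250 bases before to 50 after the start, holds each motif on either strand, for 69 respiratory chain genes (blue) and 17492 coding genes (grey). The NRF1 core is in 14.5% against 3.94%, and the extended half-site AAGGTCA in 11.6% against 4.73%.

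Signal was then set beside the half-site. The 14 tested regions whose promoter held AGGTCA had a median WT level of 43.3 CPM (cut sites relative to the library total over tested regions, scaled by TMM factors) and 37.2 CPM per kb of called peak, and the 51 without it had 28.8 CPM and 27.3 CPM per kb. For the extended half-site the order by CPM turned, with 29.0 CPM in 8 regions that held it and 37.4 CPM in 57 that did not. Per kb of called peak these were close, at 29.2 and 30.4 CPM per kb. Median log2 fold changes, Fam5snv/snv minus WT, were -0.16 with AGGTCA and -0.19 without it. These are descriptions without a test.

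The libraries differed widely in depth. Fam5snv/snv replicates 1 and 2 held 8967987 and 10341894 cut sites in 2274 and 2740 barcodes, and WT replicates 1 and 2 held 3083946 and 3580517 in 2572 and 1377 barcodes. Peaks had been called in each library by itself, 137996 and 170993 in Fam5snv/snv and 42168 and 151951 in WT, and a count exists only inside a library's own peaks. WT replicate 1 covered the least length of the 4 libraries in 77 of the 79 regions, with a median of 966 bp, against 1698 and 1738 bp in Fam5snv/snv and 1542 bp in WT replicate 2. Any pair of libraries had 3 to 12 barcodes in common, which was no more than 0.799% of either. Fewer cells with signal and less signal per cell cannot be told apart in sums over barcodes.

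The motor neuron label was checked at promoters of marker genes. Peaks lay at all of Isl1, Phox2a, Tbx20, Chat and Slc18a3 in the 4 libraries, while Mnx1 had none in WT replicate 1. On the CPM scale of the respiratory chain regions, these motor neuron markers summed to 344 and 345 CPM in Fam5snv/snv and 277 and 329.6 CPM in WT. Pecam1 of endothelium and the globin genes Hbb-bt and Hba-a1 of blood were at 0 in every library, and Cdh5 had 0 and 2 cut sites in Fam5snv/snv and 0 in WT. The 3 endothelial markers summed to 7.52 and 5.06 CPM in Fam5snv/snv and 0 and 3.17 CPM in WT, the 4 blood markers to 29.9 and 30.1 CPM in Fam5snv/snv and 16.5 and 41.2 CPM in WT, and the 2 microglial markers to 3.28 and 8.09 CPM in Fam5snv/snv and 0 and 24.97 CPM in WT. The 3 markers of neural crest and mesenchyme summed to 66.3 and 49.1 CPM in Fam5snv/snv and 44.5 and 91.4 CPM in WT. The 4 interneuron markers Lhx1, Lhx5, Pax2 and Gata2 summed to 168 and 169.8 CPM in Fam5snv/snv and 180.4 and 243 CPM in WT. Without Gata2, near which the variant lies, they summed to 98.8 and 84.0 CPM in Fam5snv/snv and 64.1 and 129 CPM in WT, and the genotypes overlapped. The 4 progenitor markers summed to 280.1 and 261 CPM in Fam5snv/snv and 288 and 311 CPM in WT. The interneuron and progenitor sums were lower in both Fam5snv/snv libraries on this scale and overlapped without the TMM factors. Within these lists Pax2 and Pax6 had log2 fold changes above 0. The motor neuron sum was higher in both Fam5snv/snv libraries on this scale and also without the TMM factors. Without them it was 351 and 356 CPM in Fam5snv/snv and 257 and 336 CPM in WT. The part of these cells in the respiratory chain values was not tested.

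The tested regions had been chosen for peaks within 1000 bp of a start, which favours peaks that cover it. An annotated TSS fell inside a called peak in all 79 regions in Fam5snv/snv replicates 1 and 2 and in WT replicate 2. In WT replicate 1 this held for 78 regions, with Ndufs4 as the exception. No such count was made over all coding promoter regions. In each library the median of the respiratory chain promoters was above that of coding promoters. The median region had 33.6 and 30.9 CPM in the Fam5snv/snv libraries and 37.8 and 39.0 CPM in the WT libraries, and the median of 12647 coding promoter regions was 27.1 and 26.4 CPM in Fam5snv/snv and 29.4 and 30.2 CPM in WT. The order of the regions by CPM was nearly the same in every library, with Spearman correlations of 0.91 to 0.97 between libraries over the 79 regions, which share their widths, and per kb of called peak the correlations were 0.70 to 0.88.

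Length was then taken into account. Per kb of called peak the median region had 18.3 and 16.3 CPM in Fam5snv/snv and 38.5 and 20.5 CPM in WT, against 13.9 and 12.2 in Fam5snv/snv and 28.6 and 16.7 in WT over coding promoters. Promoters of ribosomal proteins, another set of genes used in every cell, had a similar density, 18.9 and 16.6 CPM per kb in Fam5snv/snv and 35.5 and 21.2 in WT. Those of mitochondrial ribosomal proteins had 16.6 and 15.2 in Fam5snv/snv and 34.9 and 19.7 in WT. WT replicate 1, which covered the least length, was the highest library in all of these sets.

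**Figure D2:**
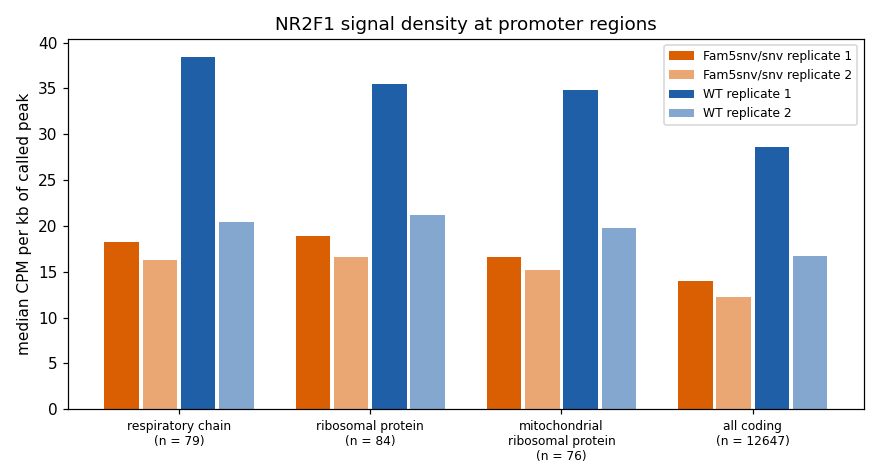
Median NR2F1 signal per kb of called peak (CPM per kb, vertical axis) in each library, for 79 respiratory chain, 84 ribosomal protein, 76 mitochondrial ribosomal protein and 12647 coding promoter regions. Orange bars are Fam5snv/snv and blue bars WT; the respiratory chain bars stand at 18.3 and 16.3 in Fam5snv/snv and 38.5 and 20.5 in WT.

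Among the complexes, ATP synthase promoters had the highest median by CPM, at percentile 82.0 of coding promoter regions by mean WT CPM, followed by complex II at 67.8, complex I at 59.5, complex III at 54.8 and complex IV at 46.3. Per kb of called peak, complexes II and V were close, at percentiles 80.8 and 80.4, and complexes III, I and IV stood at 68.2, 64.1 and 58.1. Within complex I, the 7 conserved core subunits encoded in the nucleus had a median of 51.6 CPM in Fam5snv/snv and 54.8 CPM in WT, and the 30 other subunits 23.9 CPM in Fam5snv/snv and 24.9 CPM in WT. The core regions were wider, with a median of 3295 bp against 1827 bp. Per kb of called peak the gap was smaller. In the WT libraries the core regions had 48.2 and 22.2 CPM per kb, and the other regions 34.1 and 18.99. Another coding gene had its start in or within 1000 bp of 34 of the 79 regions. These regions had higher levels (49.7 CPM in Fam5snv/snv and 59.7 CPM in WT) than the other 45 (24.9 and 26.5 CPM). They were also wider, with a median of 2678.5 bp against 1852 bp. Per kb of called peak they had 22.6 and 19.5 in Fam5snv/snv and 45.2 and 25.0 in WT. Regions without another gene had 16.6 and 14.5 in Fam5snv/snv and 35.2 and 18.4 in WT. Ndufa4, Ndufs1, Ndufs3, Uqcrh, Cox4i1, Atp5a1 and Atp5f1 lie in such shared regions, and their values are those of the region.

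**Figure D3:**
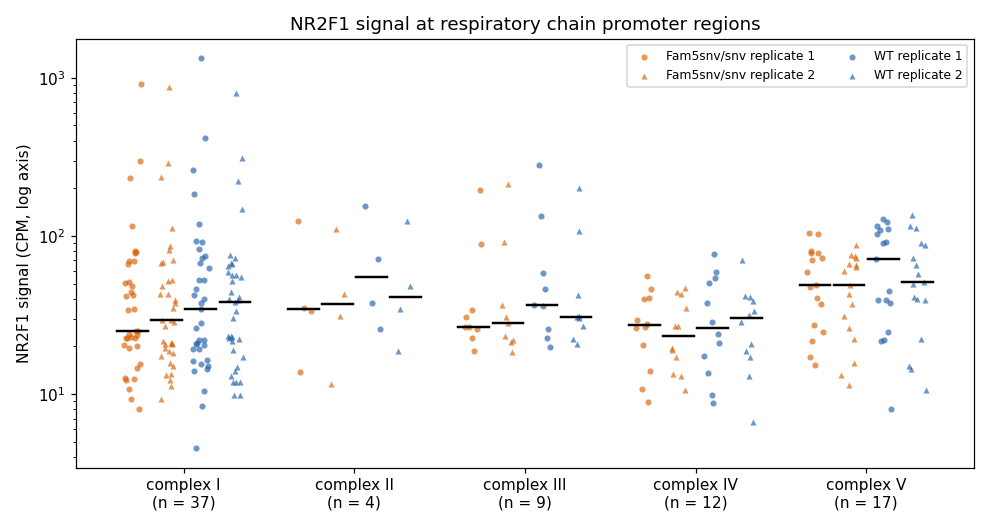
NR2F1 signal (CPM, log axis) of each tested region in each library, by complex; points are regions, black bars medians, orange Fam5snv/snv and blue WT. The highest points of complex I are the 35197 bp region at Ndufa4l2, with 916 and 879 CPM in Fam5snv/snv and 1328 and 804 CPM in WT.

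With edgeR's quasi-likelihood test and Benjamini-Hochberg adjustment over all tested regions, 0 of 79 respiratory chain regions changed between the genotypes, and 0.0% of all tested regions did. The smallest adjusted p among the 79 was 0.573. At an unadjusted p under 0.05, 8 of 79 (10.1%) were lower in Fam5snv/snv, against 3.37% of all tested regions and 6.7% of coding promoter regions, and 0 were higher, against 5.29% of all and 1.54% of coding promoter regions. DESeq2 called 1 of 79 at an adjusted p under 0.05, Atp5g2, which was lower. Of all 35770 tested regions it called 194 lower (0.542%) and 366 higher. No such share was taken over coding promoter regions alone. The count rested on single libraries: without WT replicate 2 edgeR called 18 of 79 regions, 17 lower and 1 higher, against 6.21% of all tested regions lower and 11.4% higher in the same fit. Without WT replicate 1 it called 1, which was higher, against 4.17% of all tested regions. Such fits leave 1 library in a genotype and assume that it varies like the others.

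Both Fam5snv/snv libraries lay below both WT libraries in 32 of 79 regions (40.5%), against 21.4% of all tested regions and 37.8% of coding promoter regions. They lay above in 7 (8.86%), against 23.2% of all and 10.4% of coding promoter regions. The share below was thus near that of coding promoters. Of the 79 regions, 61 had a lower log2 fold change (77.2%), against 70.0% of coding promoter regions and 48.3% of all tested regions, and 18 a higher one. The median log2 fold change was -0.24, with a range of -0.81 to 0.61. The median was -0.21 over coding promoter regions and 0.02 over all tested regions. Across the 79 regions the log2 fold change had a Spearman correlation of 0.446 with the covered length in Fam5snv/snv over that in WT, which rests on the same peaks, and across coding promoters it was 0.712. Over the 35 regions that every library covered to at least 50% the median was 0.02, and per kb of called peak, relative to all regions, it was 0.01.

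**Figure D4:**
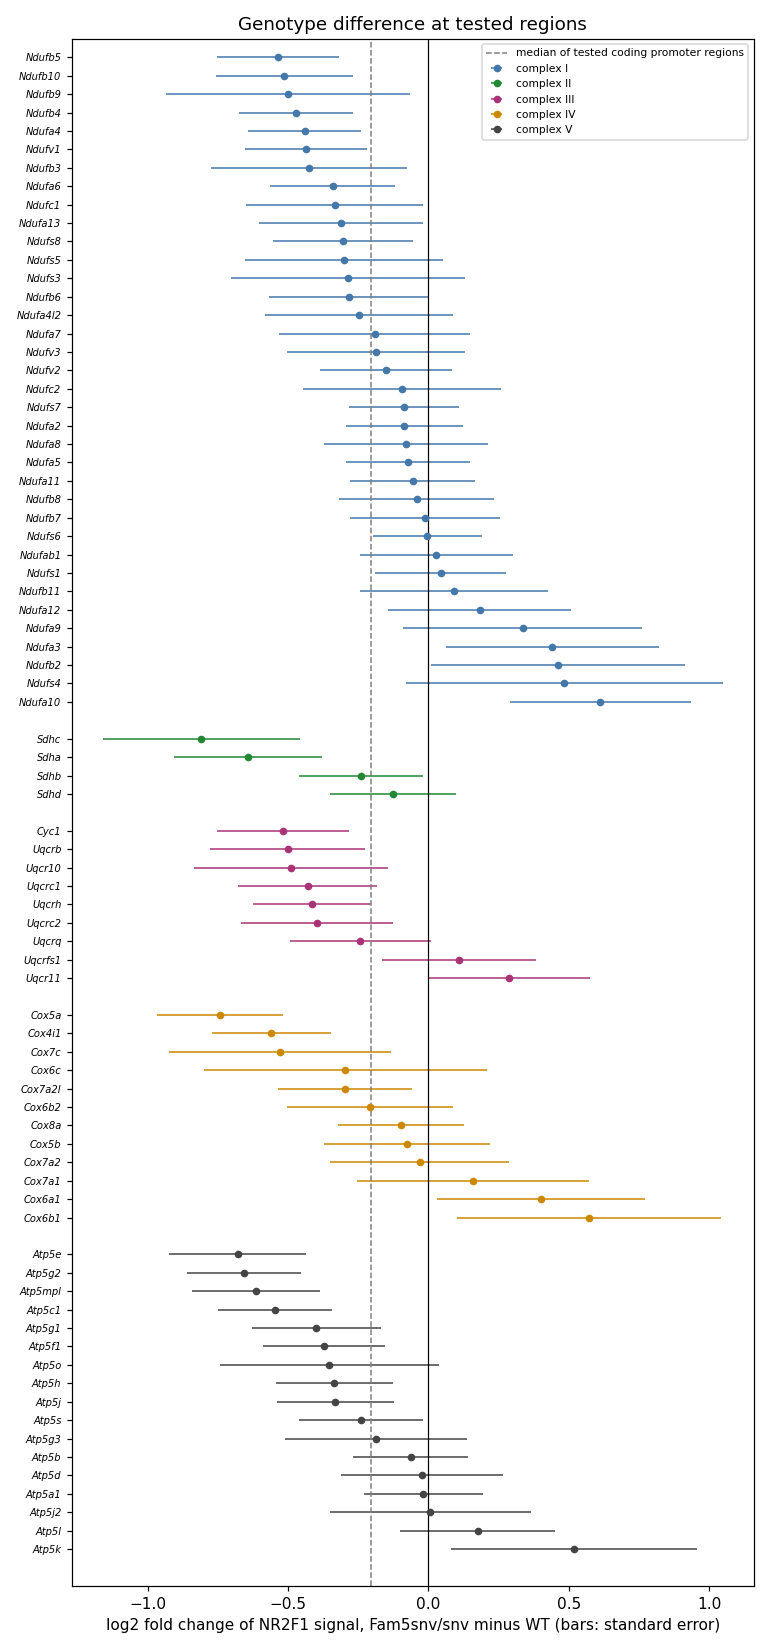
Log2 fold change of NR2F1 signal (Fam5snv/snv minus WT, horizontal axis) with its standard error for 78 of the 79 tested regions, grouped by complex and sorted within it; the dashed line is the median of coding promoter regions, -0.21. Most points lie left of 0 and run from -0.81 to 0.61, and none passed the adjusted threshold with edgeR; per kb of called peak the median is 0.01.

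As a share of all cut sites in tested regions, which needs no scaling, the 79 regions held 0.474% and 0.458% in Fam5snv/snv and 0.558% and 0.486% in WT. The difference was -0.0564 percentage points, and both Fam5snv/snv libraries were below both WT libraries. The exact two-sided permutation test gave p = 0.3333, the smallest that 2 libraries against 2 allow. Coding promoters together held 49.0% and 47.7% in Fam5snv/snv and 54.3% and 54.1% in WT.

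Complex I takes electrons from NADH. Its 37 tested regions had a median log2 fold change of -0.09, with 27 lower (73.0%, against 70.0% of coding promoter regions) and 10 higher. The region of Ndufb5, shared with Mrpl47, was the only one at an unadjusted p under 0.05 with edgeR. It had 116 and 112 CPM in Fam5snv/snv and 183 and 147 CPM in WT (log2 fold change -0.54, SE 0.217). The genotypes did not overlap.

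The core subunits carry the flavin and iron-sulfur clusters and the quinone site. Ndufv1, whose protein binds NADH, had 34.0 and 37.6 CPM in Fam5snv/snv and 52.9 and 44.0 CPM in WT. Ndufs8 had 299 and 289 CPM in Fam5snv/snv and 415 and 312 CPM in WT, in a 12704 bp region shared with Tcirg1. Ndufs3 had 9.30 and 12.3 CPM in Fam5snv/snv and 14.4 and 12.0 CPM in WT. In Ndufv1 and Ndufs8 both Fam5snv/snv libraries were below both WT libraries, and in Ndufs3 the genotypes overlapped.

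Smaller fold changes were found at further core genes. Ndufs7 had 51.4 and 51.7 CPM in Fam5snv/snv and 52.9 and 56.6 CPM in WT, a log2 fold change of -0.09. Ndufv2 had 41.6 and 39.3 CPM in Fam5snv/snv and 37.8 and 52.1 CPM in WT. Ndufs1, an iron-sulfur subunit, had 66.6 and 86.7 CPM in Fam5snv/snv and 82.7 and 66.1 CPM in WT. Of these 3, Ndufs7 alone kept the genotypes apart.

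Among accessory subunits the highest and the lowest region of complex I were found. The region with Ndufa4l2, a paralog of Ndufa4 known from hypoxia, was shared with Nxph4 and Shmt2. It was 35197 bp wide, so its level is not that of 1 promoter. Ndufa4, now placed with complex IV by biochemists although named for complex I, had 44.2 and 43.0 CPM in Fam5snv/snv and 63.1 and 55.2 CPM in WT, without overlap. By mean WT CPM, Ndufs4 was lowest, with 10.8 and 9.36 CPM in Fam5snv/snv and 4.55 and 9.85 CPM in WT. Ndufa10 had the highest fold change of the 79, with 25.2 and 29.6 CPM in Fam5snv/snv and 14.0 and 21.8 CPM in WT (log2 fold change 0.61, SE 0.322, unadjusted p = 0.0993 and adjusted p = 0.603 with edgeR). Per kb of called peak, relative to all regions, this fold change was 0.39. Ndufa3, in a region shared with Oscar, had 14.6 and 17.3 CPM in Fam5snv/snv and 10.5 and 13.0 CPM in WT. Both Fam5snv/snv libraries were above both WT libraries in Ndufa10 and Ndufa3, while in Ndufs4 the genotypes overlapped.

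Complex II, succinate dehydrogenase, links the chain to the citric acid cycle and is wholly nuclear-encoded. All 4 of its regions were lower in Fam5snv/snv, with a median log2 fold change of -0.44. Of coding promoter regions 70.0% were lower, with a median of -0.21. Sdha, the flavoprotein, in a region shared with Ccdc127, had 33.6 and 43.0 CPM in Fam5snv/snv and 71.5 and 48.2 CPM in WT. Its log2 fold change was -0.64 (SE 0.264, unadjusted p = 0.0449 and adjusted p = 0.575 with edgeR). Sdhc, a membrane anchor in a region shared with another coding gene, had 13.8 and 11.6 CPM in Fam5snv/snv and 25.9 and 18.6 CPM in WT, and the lowest fold change of the 79, -0.81, which was -0.39 per kb of called peak, relative to all regions. The genotypes did not overlap in either gene, but per kb of called peak, relative to all regions, the fold change of Sdha was 0.02.

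The other subunits of complex II were closer. Sdhb, the iron-sulfur subunit, had 125 and 110 CPM in Fam5snv/snv and 154 and 123 CPM in WT, and its genotypes overlapped. Sdhd, the second anchor, in a region shared with Timm8b, had 35.1 and 31.1 CPM in Fam5snv/snv and 37.8 and 34.5 CPM in WT, also with overlap.

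Complex III passes electrons to cytochrome c. Its 9 regions had a median log2 fold change of -0.42, and 5 had both Fam5snv/snv libraries below both WT libraries. Cyc1, which encodes cytochrome c1, had 33.9 and 36.4 CPM in Fam5snv/snv and 58.2 and 42.6 CPM in WT (log2 fold change -0.52, SE 0.235, and -0.28 per kb of called peak, relative to all regions). Uqcrq was the highest of the complex, with 195 and 212 CPM in Fam5snv/snv and 282 and 200 CPM in WT, in a region shared with Gdf9, and the genotypes overlapped. Its density was the highest of the 79 in WT replicate 1, at 164 CPM per kb, where 1 library decided the rank, and 44.2 CPM per kb in WT replicate 2, where Atp5g1 at 71.6 and Ndufb5 at 56.9 were denser. Uqcrfs1, the Rieske iron-sulfur protein, was lowest by WT level, at 26.4 and 22.1 CPM in Fam5snv/snv and 22.8 and 22.2 CPM in WT, and here the genotypes overlapped.

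Complex IV, cytochrome c oxidase, has tissue-specific isoforms of several subunits. Cox5a had the smallest p of all 79 regions, with 27.8 and 27.1 CPM in Fam5snv/snv and 50.1 and 41.5 CPM in WT. Its log2 fold change was -0.74 (SE 0.225, unadjusted p = 0.0131 and adjusted p = 0.573 with edgeR), and its genotypes did not overlap. Per kb of called peak, Cox5a stood at 12.9 and 13.0 in Fam5snv/snv and 49.6 and 16.2 in WT, with WT replicate 1 far from the other libraries. Cox4i1, the ubiquitous isoform of subunit IV and the highest of the complex, had 55.5 and 44.1 CPM in Fam5snv/snv and 76.4 and 70.3 CPM in WT (log2 fold change -0.56, SE 0.212, and -0.96 per kb of called peak, relative to all regions).

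Several isoforms known from other tissues had NR2F1 signal at their promoters, which says nothing of their expression. Cox7a1, the heart and muscle isoform, had 26.7 and 19.6 CPM in Fam5snv/snv and 28.4 and 13.0 CPM in WT, and Cox7a2, the ubiquitous form, had 20.4 and 17.1 CPM in Fam5snv/snv and 21.02 and 17.2 CPM in WT. Cox6b2, the testis isoform, had 26.2 and 19.1 CPM in Fam5snv/snv and 23.8 and 28.5 CPM in WT, above Cox6b1 in every library, which had 13.9 and 10.6 CPM in Fam5snv/snv and 9.81 and 6.68 CPM in WT. Cox7a1 and Cox7a2 changed places between libraries. In WT CPM per kb, Cox6b2 stood at percentile 24.5 of coding promoters and Cox6b1 at 35.6, the opposite order.

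In the other isoform groups the restricted forms had few cut sites or no peak. Cox6a1 had 39.8 and 34.9 CPM in Fam5snv/snv and 17.5 and 39.0 CPM in WT, with WT replicate 1 apart from the rest. Its log2 fold change was 0.40, and -0.07 without WT replicate 1, and its muscle partner Cox6a2 had no called peak. Cox8a had 46.2 and 42.7 CPM in Fam5snv/snv and 53.9 and 41.2 CPM in WT, while the muscle isoform Cox8b had 30 and 33 cut sites in Fam5snv/snv and 29 in WT replicate 2, with no peak in WT replicate 1. Cox4i2, the lung isoform, had 35 and 43 cut sites in Fam5snv/snv and 22 in WT replicate 2. Cox7b, the ubiquitous form, had 32 and 58 in Fam5snv/snv and 16 in WT replicate 2, so this ubiquitous form was also low.

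**Figure D5:**
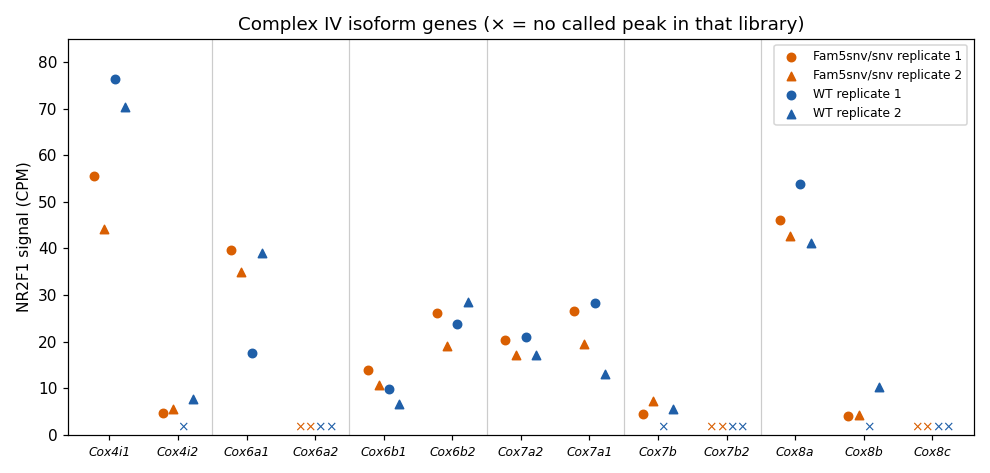
NR2F1 signal (CPM, vertical axis) at promoter regions of complex IV isoform genes in each library, the ubiquitous form of each group at its left; crosses mark a library with no called peak. Cox4i1 stands at 55.5 and 44.1 CPM in Fam5snv/snv and 76.4 and 70.3 CPM in WT, and Cox6a2, Cox7b2 and Cox8c have no called peak in any library.

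Complex V, the ATP synthase, held 4 of the 8 regions lower at an unadjusted p under 0.05. Atp5g2, one of the genes for the c subunit of the rotor ring, had 80.7 and 72.1 CPM in Fam5snv/snv and 128 and 113 CPM in WT (log2 fold change -0.66, SE 0.204, unadjusted p = 0.0147, adjusted p = 0.573 with edgeR and 0.0268 with DESeq2). Its fold change was -0.36 among regions covered to at least 50% by each library and -0.14 per kb of called peak, relative to all regions. Atp5e, the epsilon subunit of the stalk, had 49.1 and 59.8 CPM in Fam5snv/snv and 102 and 72.1 CPM in WT (log2 fold change -0.68, SE 0.244). In both genes the genotypes did not overlap. The c subunit is made from 3 such genes, and Atp5g1 and Atp5g3 had log2 fold changes of -0.40 and -0.19, neither at an unadjusted p under 0.05.

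Atp5c1, the gamma subunit, in a region shared with Kin, had 70.0 and 66.5 CPM in Fam5snv/snv and 109 and 90.7 CPM in WT (log2 fold change -0.55). Atp5mpl, a small membrane subunit, had 24.6 and 26.0 CPM in Fam5snv/snv and 37.8 and 39.7 CPM in WT (log2 fold change -0.61, and -0.28 per kb of called peak, relative to all regions). Again the genotypes were apart in both. Atp5f1, subunit b, was the highest in WT, at 103 and 88.3 CPM in Fam5snv/snv and 111 and 136 CPM in WT, also without overlap.

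Also in complex V, Atp5a1 and Atp5b showed little difference, with log2 fold changes of -0.02 and -0.06. Atp5k, the lowest of the complex in WT, had 15.3 and 11.4 CPM in Fam5snv/snv and 8.06 and 10.6 CPM in WT (log2 fold change 0.52, SE 0.438, and 0.0814 per kb of called peak, relative to all regions), without overlap. The region of Atp5j was shared with Gabpa, which encodes a GABP subunit, and had a log2 fold change of -0.33.

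Of the 18 regions not tested, 13 had a peak in 1 library only, 1 in 2 libraries and 4 in all but WT replicate 1. The last 4 were those of Cox4i2, Cox8b, Cox7b and Ndufa1, and Ndufa1 had 50 and 66 cut sites in Fam5snv/snv and 53 in WT replicate 2. Of the 18, 13 lay beside a tested region of the same gene. Cox6a2, Cox7b2 and Cox8c had no region at all. On the mitochondrial chromosome, 0 peaks were listed. Whether peak calling covered that chromosome was not checked, so nothing can be said of NR2F1 signal there.

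Genes around the chain were taken from 5 further lists, to be read against the 3.37% of all tested regions and 6.7% of coding promoter regions that were lower at an unadjusted p under 0.05, the 5.29% and 1.54% that were higher, and the coding promoter median of -0.21. Assembly factors, which build the complexes, had 42 tested regions, 2 lower and 0 higher at an unadjusted p under 0.05, with a median log2 fold change of -0.17. The lowest p were those of Sco1, a copper chaperone of complex IV, in a region shared with Adprm (10.4 and 9.48 CPM in Fam5snv/snv and 19.3 and 22.2 CPM in WT), and Coa7 (log2 fold change -0.61). Regulators of respiratory genes had 3 of 17 regions lower: Gabpb1, a GABP subunit (22.1 and 22.9 CPM in Fam5snv/snv and 40.3 and 33.1 CPM in WT), Yy1 (log2 fold change -0.54) and Pprc1, with a median of -0.33.

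The citric acid cycle list had 2 of 17 regions lower, those of Pdhb and Fh1 at log2 fold changes of -0.51 and -0.55, and a median of -0.39. Genes for the upkeep of mitochondrial DNA had 0 of 9 in either direction, with Tfb2m and Polg at the smallest p. Glycolysis had 0 of 20 lower and 1 higher, Eno2, the neuronal enolase, with 16.7 and 18.8 CPM in Fam5snv/snv and 6.66 and 10.6 CPM in WT (log2 fold change 1.04), and a median of -0.04. Ldhb followed at -0.76. None of these regions passed the adjusted threshold with edgeR.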

How the data were processed

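The 4 libraries are separate embryo pools, which the study calls biological replicates. Per the submitters' processing notes, reads were processed with Cell Ranger ATAC on mm10, and the matrix headers give software 1.2.0. For each library the authors deposited raw counts (cut sites in each peak and barcode, not normalized), the peak positions and the barcodes called as cells. Peaks carry no height. A control antibody library was not analysed here.

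Counts were summed over barcodes. Peaks sharing 1 bp or more were merged. A region was tested if all libraries had a peak in it and 2 or more libraries reached 10 cut sites, with edgeR 4.0.16 in R 4.3.3 (quasi-likelihood test, TMM), after a check on simulated data, with DESeq2 1.42.0 as an alternative. The common biological coefficient of variation was 0.305 with 2 residual degrees of freedom. Tested regions held 74.1% to 99.5% of a library's cut sites, and the lower WT depth limits precision. TSSs came from GENCODE M21, promoter sequences from RefSeq.

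Genes were named by rule: the highest and lowest WT level of each complex, the 5 smallest p in each direction, complex II, Cyc1, the complex I core, isoform groups, members without a tested region, and the 2 smallest p of each further list. Some genes under this rule are not reported here, and others were named after their values were seen. Members and lists were chosen with earlier results of these data known.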

Additional observations from a re-analysis of the deposited data

How the results depend on the processing

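The count of 0 called regions became 1 with DESeq2 and ran from 0 to 18 when each library was left out, with 2221 of 35770 regions lower and 4094 higher without WT replicate 2, and 419 lower and 1492 higher without WT replicate 1. The median log2 fold change of -0.24 became -0.16 with library totals, -0.0445 with at least 50 cut sites in every library (59 regions), 0.0159 with regions covered to at least 50% by each library (35 regions) and 0.0085 per kb of called peak, where all regions shifted by -0.76. It ran from -0.30 to -0.14 without single libraries. Scaling by barcodes shifted all regions by 0.97, and the members stood at -0.21 relative to that. The share difference of -0.0564 percentage points became 0.00993 with regions covered to at least 50% and ran from -0.0923 to -0.0204 without single libraries. The cause of these moves was not tested. Regions lower at an unadjusted p under 0.05 numbered 8 in the reported test and 15 with DESeq2. They numbered 4 with at least 50 cut sites and 1 (and 1 higher) at 50% coverage. Per kb they numbered 14, and by barcodes 0 (and 17 higher). Both of these last fits tested against 0, although all regions had shifted by -0.76 and 0.97, so their counts cannot be compared with the 8. Beyond the reported test, no share over all regions was taken beside these counts. Over all regions and libraries edgeR called 0, DESeq2 194 lower and 366 higher.

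With the replicate block, 0 regions were called, the median was -0.22, 6 were lower at an unadjusted p under 0.05 and the 32 named genes kept their direction and side of the threshold. Replicate numbers did not pair the libraries (r = 0.0292 between deviations).

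Directions of single genes turned with library totals for Cox7a2 (0.0474), with at least 50 cut sites for Cox8a (0.11), Ndufs7 (0.11), Ndufv2 (0.0338) and Sdhd (0.0735), and at 50% coverage for Cox6b2 (0.0741), Cox8a (0.21), Ndufa4l2 (0.0802), Ndufv2 (0.12) and Sdhd (0.17). They turned per kb for Cox6b2 (0.40), Cox7a1 (-0.0089), Cox7a2 (0.0173), Cox8a (0.22), Ndufs4 (-0.13), Ndufv1 (0.0733), Ndufv2 (0.34), Sdha (0.0228) and Sdhd (0.19), and with peaks that reach the start windows for Sdhb (0.0156). Without single libraries the fold change ran from -0.0722 to 1.09 for Cox6a1, -0.45 to 0.0079 for Cox6b2, -0.30 to 0.82 for Cox7a1, -0.17 to 0.11 for Cox7a2, -0.28 to 0.10 for Cox8a, -0.56 to 0.15 for Ndufa4l2, -0.16 to 0.22 for Ndufs1, -0.37 to 0.10 for Ndufv2, -0.0218 to 0.24 for Uqcrfs1 and -0.47 to 0.0195 for Uqcrq.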
